A study of Mus musculus with 8 samples.

Results

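The nuclear genes that encode subunits of respiratory chain complexes I to IV and of ATP synthase (complex V) were followed in excitatory neurons of the mouse forebrain during pilocarpine-induced seizure. Members were taken by symbol (Nduf subunits of the a, b, c, s and v series, Sdha to Sdhd, Uqcr genes, Cyc1, Cox4 to Cox8 subunits and Atp5 genes, without assembly factors and pseudogenes), with at least 10 counts in 4 or more libraries of the exonic count table. The rule found 88 candidate genes among the 55471 genes of that table, and 83 passed the count and pseudogene limits. Assigned to complexes by symbol alone, they comprised 37 members of complex I, 4 of complex II, 9 of complex III, 15 of complex IV and 18 of complex V. Ndufa4 is therefore counted under complex I and Atp5s (RefSeq symbol Dmac2l) under complex V, and the place of each protein was not checked. Cox4i2, Cox7b2, Cox8c, Cox6c2 (a pseudogene) and a second Atp5o entry did not pass, and Ndufb1-ps, annotated as a noncoding RNA, was not counted. Usmg5 entered under its newer symbol, Atp5md.

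Nuclei came from male C57BL/6J mice of 6 to 8 weeks with the genotype CaMKIIalpha-Cre:SUN1-sfGFP, in both groups. In these mice Cre recombinase, driven by the CaMKIIalpha promoter, switches on a GFP-tagged nuclear envelope protein, and antibody-coated beads then pull down the tagged nuclei (INTACT). The Mock group (4 samples) received scopolamine methyl nitrate at 1 mg/kg, which blocks muscarinic receptors mainly outside the brain, and saline 30 min later. The Pilo group (4 samples) received the same scopolamine dose and then pilocarpine, a muscarinic agonist, at 340 mg/kg. Both groups were studied 100 min after injection, and Pilo mice with Racine seizure scores of 3 to 5 were used, a selection that did not apply to Mock. Whether the 8 samples are 8 mice is not stated in the labels, and p-values therefore rest on a sample-to-sample spread that may be partly technical.

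Polyadenylated nuclear RNA was sequenced, so exonic reads here come from nuclear messenger RNA and its precursors, while intronic reads come from unspliced RNA. The exonic table held 29356788 to 36161448 counts per library. A second table held exonic counts (27135364 to 33715773 per library) and intronic counts (11928054 to 16703475) apart. Each level is in CPM, that is, the count per 1000000 counts of the TMM-adjusted library, and replicates 1 to 4 are listed in order. Replicates 3 and 4 of both groups stood apart in the exonic table. The 13 mitochondrially encoded subunits, which are made outside the nucleus, summed to 132 and 139 CPM in Mock replicates 1 and 2 against 389 and 344 in Mock 3 and 4. In Pilo they summed to 154 and 132 against 461 and 429. Columns 2 and 3 of each group carried exchanged numbers between the 2 tables, so the high libraries are replicates 2 and 4 in the second table.

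The respiratory chain carries electrons from NADH (complex I) and succinate (complex II) through coenzyme Q, complex III and cytochrome c to oxygen at complex IV. Proton pumping by complexes I, III and IV drives ATP synthesis by complex V, the main source of ATP for ion pumping in active neurons. Most subunits are encoded in the nucleus and the remainder in mitochondrial DNA, and transcription factors such as NRF1 and GABP are known to act on many of the nuclear genes.

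In exonic RNA the subunits moved in both directions and by small amounts. At an adjusted p under 0.05 (edgeR quasi-likelihood test, Benjamini-Hochberg over all 19176 genes tested), 11 of the 83 members rose in Pilo, 10 fell and 62 passed in neither direction. That is 25.3% of members called, where 31.8% of all genes were called (15.6% higher and 16.2% lower). The median log2 fold change of members was 0.05, against 0.00 for all genes tested, and no member changed by 1 or more on the log2 scale. The standard error of a member's log2 fold change had a median of 0.09. CPM of the 4 Pilo libraries lay entirely above or below those of Mock for 26 members (31.3%), against 32.0% of all genes. With the replicate number as a block, since same-numbered Mock and Pilo libraries deviated together, 23 members rose and 16 fell, or 47.0%, the same share as over all genes (47.0%). All 21 calls made without the block were among them. By complex, the rises and falls with the block were 8 and 10 in complex I, 1 and 1 in II, 3 and 1 in III, 5 and 2 in IV and 6 and 2 in V. In bulk nuclei, a change in the RNA of each nucleus and a change in the mix of nuclei cannot be told apart.

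**Figure D1:**
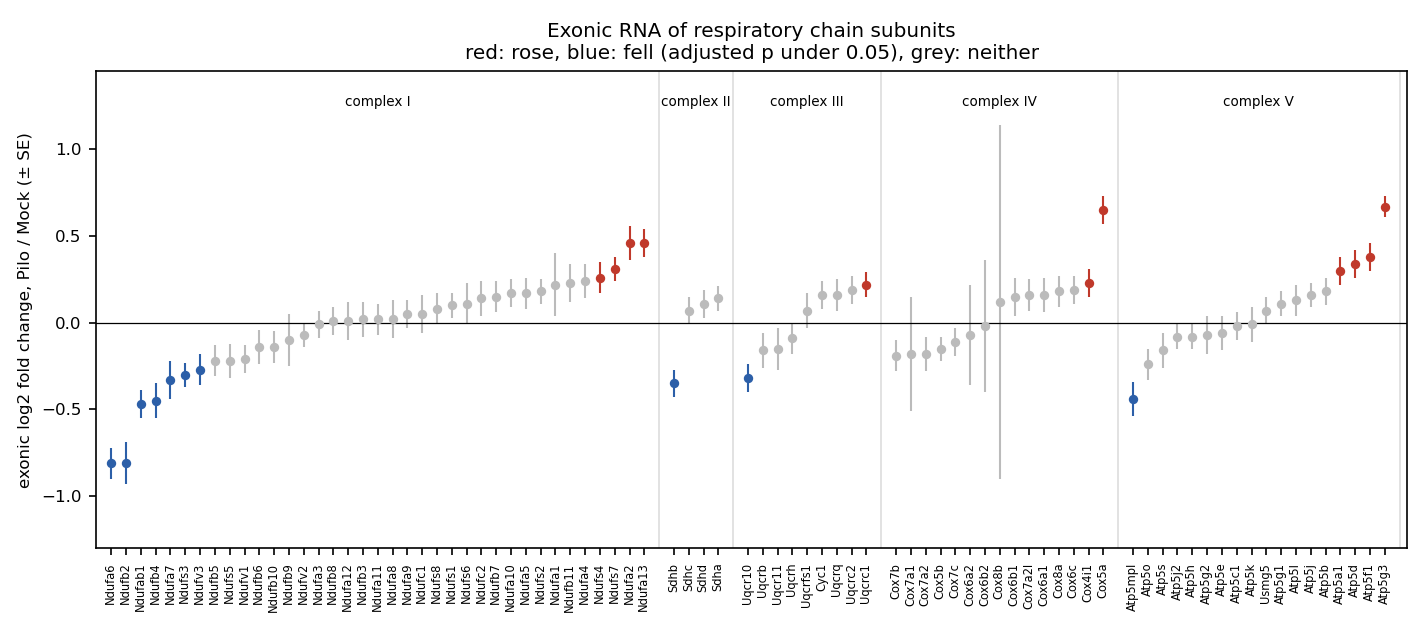
Exonic log2 fold change of Pilo against Mock (vertical axis) for each of the 83 members, ordered by size within complexes I to V; bars are ± SE over 4 samples per group. The 11 rises (red) reached 0.67 for Atp5g3 and the 10 falls (blue) reached -0.81 for Ndufa6 and Ndufb2, while the other 62 (grey) passed in neither direction.

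Complex I, the entry point for NADH, held 7 of the 10 falls and 4 of the 11 rises. Of its 37 members 29.7% were called, against 31.8% of all genes. Their median log2 fold change was 0.02, with 22 above 0 and 15 below. Ndufa6 and Ndufb2 had the steepest falls, equal to 2 decimals. Ndufa6 (ENSMUSG00000022450, chr15:82350140-82354322, mm10) is an accessory subunit that binds the mitochondrial acyl carrier protein. Its exonic level was 34.9, 39.2, 40.1 and 35.6 CPM in Mock and 21.0, 19.3, 24.3 and 20.7 CPM in Pilo. Every Pilo library lay below every Mock library, and the log2 fold change was -0.81 ± 0.09 (SE, n = 4 per group; edgeR adjusted p = 3.18e-05). Ndufab1 (ENSMUSG00000030869, chr7:122085403-122101886), which encodes that acyl carrier protein, fell too. It stood at 71.8, 82.6, 79.1 and 70.4 CPM in Mock and at 53.4, 52.6, 59.2 and 53.5 CPM in Pilo. The groups did not overlap, and the log2 fold change was -0.47 ± 0.08 (edgeR adjusted p = 0.000454).

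Ndufb2 (ENSMUSG00000002416, chr6:39592574-39603382), a small accessory subunit of the membrane arm, was at 27.7, 29.4, 30.4 and 26.6 CPM in Mock. In Pilo it was at 21.1, 15.0, 15.2 and 13.8 CPM. All Pilo libraries were lower, with replicate 1 the nearest to Mock, and the log2 fold change was -0.81 ± 0.12 (edgeR adjusted p = 0.000281). In the exonic columns of the second table, Ndufb2 was at -0.83 ± 0.12 and Ndufa6 at -0.74 ± 0.09. Ndufb4, also of the membrane arm, fell by 0.45 on the log2 scale (SE 0.10), from 17.3 to 17.8 CPM in Mock to 11.5 to 14.9 CPM in Pilo. Ndufs3, a core subunit of the arm that protrudes into the matrix, fell by 0.30 (SE 0.07), with 72.6 to 80.5 CPM in Mock and 57.7 to 64.5 CPM in Pilo. Neither gene's groups overlapped. The smaller falls of Ndufa7 (-0.33 ± 0.11, edgeR adjusted p = 0.0367) and Ndufv3 (-0.27 ± 0.09, adjusted p = 0.0299), both accessory subunits, were near the threshold. Ndufa7 lost its call without any 1 Mock library, Pilo replicate 2 or Pilo replicate 4 (adjusted p 0.0536 to 0.145), and its groups overlapped. Ndufv3 lost its call without any 1 library other than Pilo replicate 2 (0.0556 to 0.0847).

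The rises in complex I were those of Ndufa13, Ndufa2, Ndufs7 and Ndufs4. Ndufa13 (GRIM-19, an accessory subunit that spans the membrane) was at 27.5, 24.3, 26.7 and 23.8 CPM in Mock and at 34.6, 38.1, 34.5 and 33.7 CPM in Pilo. Its groups were apart, with a log2 fold change of 0.46 ± 0.08 (edgeR adjusted p = 0.000832). Ndufa2, an accessory subunit of the matrix arm, stood at 9.35, 8.71, 10.7 and 8.99 CPM in Mock and 12.7, 12.6, 14.3 and 12.3 CPM in Pilo. These groups were apart as well, at 0.46 ± 0.10 (edgeR adjusted p = 0.00464). Ndufs7, the core subunit that carries the last iron-sulphur cluster before coenzyme Q, rose by 0.31 ± 0.07 (adjusted p = 0.00467), from 34.3 to 37.2 CPM to 41.8 to 46.2 CPM. Ndufs4, an accessory subunit known for mutations that cause Leigh syndrome, rose by 0.26 ± 0.09 (edgeR adjusted p = 0.0370). That call was lost in the exonic columns of the second table and without any 1 of Mock 1, 2 and 4 and Pilo 2, 3 and 4 (adjusted p 0.0541 to 0.105 in these 6 fits). By role, 1 of the 7 core subunits rose and 1 fell, and of the 30 accessory subunits 3 rose and 6 fell. With the block these were 2 and 2 of the core and 6 and 8 of the accessory subunits. Over all genes, 31.8% were called without the block and 47.0% with it.

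Complex II, which oxidises succinate and belongs to the tricarboxylic acid cycle as well, had 1 call among 4 subunits. That is 25.0%, against 31.8% of all genes. Sdhb, the iron-sulphur subunit (ENSMUSG00000009863, chr4:140961203-140979193), was at 57.7, 57.6, 57.9 and 51.6 CPM in Mock and at 48.5, 42.3, 42.3 and 42.8 CPM in Pilo. The groups did not overlap, although Mock replicate 4 and Pilo replicate 1 each stood apart from their own group towards the other. The log2 fold change was -0.35 ± 0.08 (edgeR adjusted p = 0.00301). Sdha, the flavoprotein subunit to which Sdhb is bound, was at 0.14 ± 0.07 and did not pass (adjusted p = 0.178). It passed with the replicate block (0.13 ± 0.05, adjusted p = 0.0351).

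Complex III, which hands electrons from coenzyme Q to cytochrome c, had 1 rise and 1 fall among 9 subunits. The share called was 22.2%, against 31.8% of all genes. Uqcr10, a small subunit, fell by 0.32 on the log2 scale (SE 0.08, edgeR adjusted p = 0.00735). Its Mock libraries held 29, 32.6, 32.9 and 29.6 CPM and its Pilo libraries 25.9, 23.3, 25.3 and 24.8 CPM, without overlap. Uqcrc1, one of the large core proteins on the matrix side, was at 163, 160, 149 and 163 CPM in Mock and at 184, 201, 171 and 181 CPM in Pilo. The groups were apart, but the log2 fold change of 0.22 ± 0.07 passed narrowly (edgeR adjusted p = 0.0391). It did not pass in the second table (0.19 ± 0.07, adjusted p = 0.0582). Nor did it pass without any 1 of Mock 2, 3 and 4 and Pilo 1, 2 and 4 (adjusted p 0.0524 to 0.103).

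Complex IV, cytochrome c oxidase, had 2 rises and no fall among 15 subunits, 13.3% called, against 31.8% of all genes. With the replicate block it had 5 rises and 2 falls, or 46.7%, near the 47.0% of all genes. Cox5a (ENSMUSG00000000088, chr9:57521274-57532426), a subunit of the matrix face found in every tissue, held 29.6, 27.9, 29.4 and 30.2 CPM in Mock and 42.4, 48.3, 49.4 and 43.7 CPM in Pilo. The lowest Pilo library lay well above the highest Mock library, and the log2 fold change was 0.65 ± 0.08 (edgeR adjusted p = 4.93e-05). Cox4i1, the subunit through which ATP is known to slow the enzyme, rose by 0.23 ± 0.08 (adjusted p = 0.0310) from 78.6 to 88.3 CPM to 92.2 to 109 CPM. Its groups were apart, yet the call was lost without any 1 of Mock 2, Mock 4, Pilo 2 and Pilo 3 (adjusted p 0.0589 to 0.0908). The lowest change in the complex was that of Cox7b, at -0.19 ± 0.09 with overlapping groups (adjusted p = 0.129). Cox7b passed with the replicate block (-0.19 ± 0.06, adjusted p = 0.0234), as did Cox6a1 (0.16 ± 0.06, adjusted p = 0.0389) and Cox8a (0.18 ± 0.06, adjusted p = 0.02).

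Complex V, ATP synthase, had 4 rises and 1 fall among 18 subunits, 27.8% called, against 31.8% of all genes. Atp5g3 (ENSMUSG00000018770, chr2:73908447-73911326) encodes one of 3 precursors of the c subunit, whose ring turns as protons pass. It held 74.0, 75.3, 71.2 and 72.2 CPM in Mock and 118, 117, 114 and 115 CPM in Pilo. The libraries of each group were close together and the groups far apart, with a log2 fold change of 0.67 ± 0.06, or 1.59-fold (edgeR adjusted p = 1e-05). Atp5f1, subunit b of the peripheral stalk that holds the catalytic head in place, was at 54.5, 48.4, 55.8 and 51.3 CPM in Mock and at 71.1, 63.4, 72.8 and 66.4 CPM in Pilo. It rose by 0.38 ± 0.08 without overlap of the groups (adjusted p = 0.00184).

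In the catalytic head, Atp5d (the delta subunit of the rotor) rose by 0.34 ± 0.08 (edgeR adjusted p = 0.00360), from 83.3 to 90.4 CPM to 98.6 to 119 CPM. Atp5a1 (the alpha subunit) rose by 0.30 ± 0.08 (adjusted p = 0.00890), from 159 to 187 CPM to 204 to 224 CPM. The groups overlapped for neither. The fall in complex V was that of Atp5mpl (ENSMUSG00000021290, chr12:111961375-111966977), a small membrane protein bound to the enzyme. It held 25.9, 28.5, 26.9 and 24.8 CPM in Mock and 22.9, 18.4, 18.0 and 18.7 CPM in Pilo. All Pilo libraries were lower, replicate 1 being the highest of them, at a log2 fold change of -0.44 ± 0.10 (edgeR adjusted p = 0.00334).

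**Figure D2:**
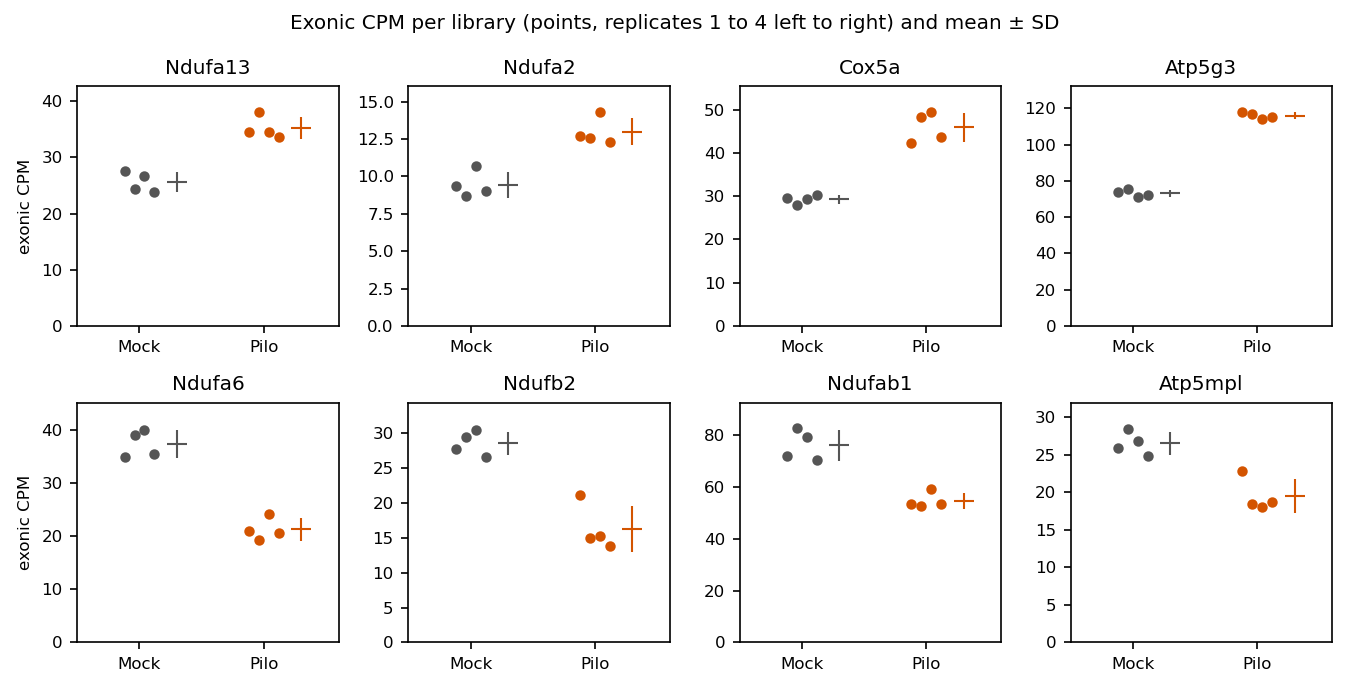
Exonic CPM (vertical axes, from 0) of 8 members in each of the 4 Mock and 4 Pilo libraries, with mean ± SD beside the points. Ndufa13, Ndufa2, Cox5a and Atp5g3 are higher in every Pilo library, and Ndufa6, Ndufb2, Ndufab1 and Atp5mpl lower.

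Exons of 10 of the 21 called members overlap another annotated gene, against 30 of all 83. The strand setting of the counting is not given in the sources used here, so reads of such pairs may be shared or discarded. For Atp5d, the overlapping gene on the opposite strand, Cbarp, rose as well (0.95, edgeR adjusted p = 1.86e-05), and its part in the Atp5d value was not tested. For Ndufa2 and Atp5a1 the overlapping genes went the other way: Tmco6 fell by 0.65 and Haus1 fell by 0.89 on the log2 scale (adjusted p 0.000124 and 9.47e-05). Ndufb2 overlaps Braf (0.22, adjusted p = 0.108), Cox4i1 overlaps Emc8 (0.03, 0.799) and Atp5f1 overlaps Wdr77 (0.19, 0.144). Ndufs3 overlaps Kbtbd4 (-0.11, 0.349). The genes overlapping Cox5a (Gm26631) and Ndufab1 (Gm44986) held means of at most 1.61 CPM in either group. Tssk6, beside Ndufa13, held a mean of 0.406 CPM in Mock and 0.663 CPM in Pilo, far under the level of Ndufa13. The falls of Ndufa6, Ndufa7, Ndufb4, Ndufv3, Sdhb, Uqcr10 and Atp5mpl, and the rises of Ndufs4, Ndufs7, Uqcrc1 and Atp5g3, were on genes with no such overlap.

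Several subunits exist as isoforms that are known to differ between tissues. Levels were compared between genes as CPM per kb of transcript, using the median length of each gene's protein-coding transcripts. Among the 3 genes for the c subunit, which yield the same mature protein, Atp5g3 had the highest Mock level at 102 ± 2.59 (SD, n = 4) CPM per kb. Atp5g2 followed at 35.8 ± 3.11 and Atp5g1 at 16.7 ± 0.410. Only Atp5g3 of the 3 passed the exonic test. Atp5g1 was at 0.11 ± 0.07 (edgeR adjusted p = 0.229), with 43.5 to 46.1 CPM in Mock and 46.5 to 49.8 CPM in Pilo, and Atp5g2 at -0.07 ± 0.11 (adjusted p = 0.644). The difference between these genes' responses was not tested.

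The general forms of the cytochrome c oxidase subunits prevailed over their tissue-restricted relatives. In Mock, Cox6a1 stood at 55.7 ± 6.44 CPM per kb and the heart and muscle form Cox6a2 at 1.04 ± 0.209. Cox6b1 stood at 48.1 ± 6.28 and the testis form Cox6b2 at 2.42 ± 1.03. Cox7a2 stood at 33.7 ± 3.03 and the heart and muscle form Cox7a1 at 1.82 ± 0.470. Cox7a2l, a relative classed as a supercomplex factor, was between them at 23.0 ± 1.09. Cox8a stood at 84.5 ± 5.82 and the heart and muscle form Cox8b at 1.16 ± 0.988. None of these 9 genes passed the exonic test, and edgeR adjusted p ranged from 0.159 for Cox8a to 0.970 for Cox6b2. Cox8b followed the replicates rather than the groups. It was at 0.0663, 0.160, 0.746 and 0.704 CPM in Mock and at 0.0286, 0.0326, 0.893 and 0.928 CPM in Pilo, high in the libraries with much mitochondrial RNA. Cox6b2 was likewise higher in replicates 3 and 4 of both groups, at 0.498, 0.897, 1.31 and 1.51 CPM in Mock and 0.685, 0.587, 1.47 and 1.43 CPM in Pilo.

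**Figure D3:**
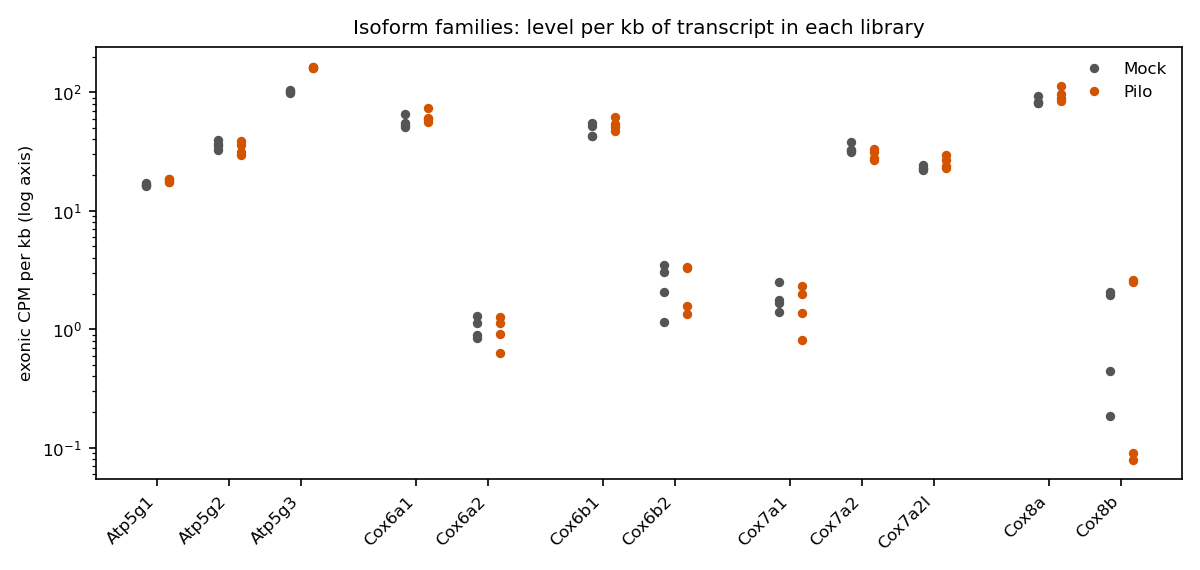
Exonic CPM per kb of transcript (vertical log axis) of the isoform families in each of the 4 Mock (grey) and 4 Pilo (orange) libraries. Atp5g3 lies highest in its family and rose, the tissue-restricted forms have Mock means of 1.04 to 2.42 CPM per kb, and the Cox8b points of each group fall into a low pair and a high pair.

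Summed over its members, complex V differed most between the groups in exonic RNA. Its sum was 1162, 1095, 1179 and 1127 CPM in Mock and 1340, 1265, 1316 and 1256 CPM in Pilo, a change of 13.5% with no overlap. Complex III went from 475.2 ± 7.07 (SD, n = 4) to 512.5 ± 12 CPM, also without overlap (7.84%). The sums of complex IV (499 ± 23.2 and 539.9 ± 31.4 CPM), complex I (1248 ± 21.6 and 1219 ± 32.7 CPM) and complex II (260.8 ± 7.04 and 267 ± 15.2 CPM) overlapped between groups. Sums weight abundant genes, and no test was made over them. Without its most abundant member, the log2 ratio of complex III went from 0.11 to 0.05 and that of complex II from 0.03 to -0.12. In intronic RNA, complex V was higher in Pilo by 10.3% with overlapping groups. Complex IV was lower by 17.9% (559.2 ± 40.6 and 459.2 ± 31.5 CPM), without overlap. Complex I was lower by 10.9% (2600 ± 140 and 2316 ± 130 CPM), with overlapping groups.

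**Figure D4:**
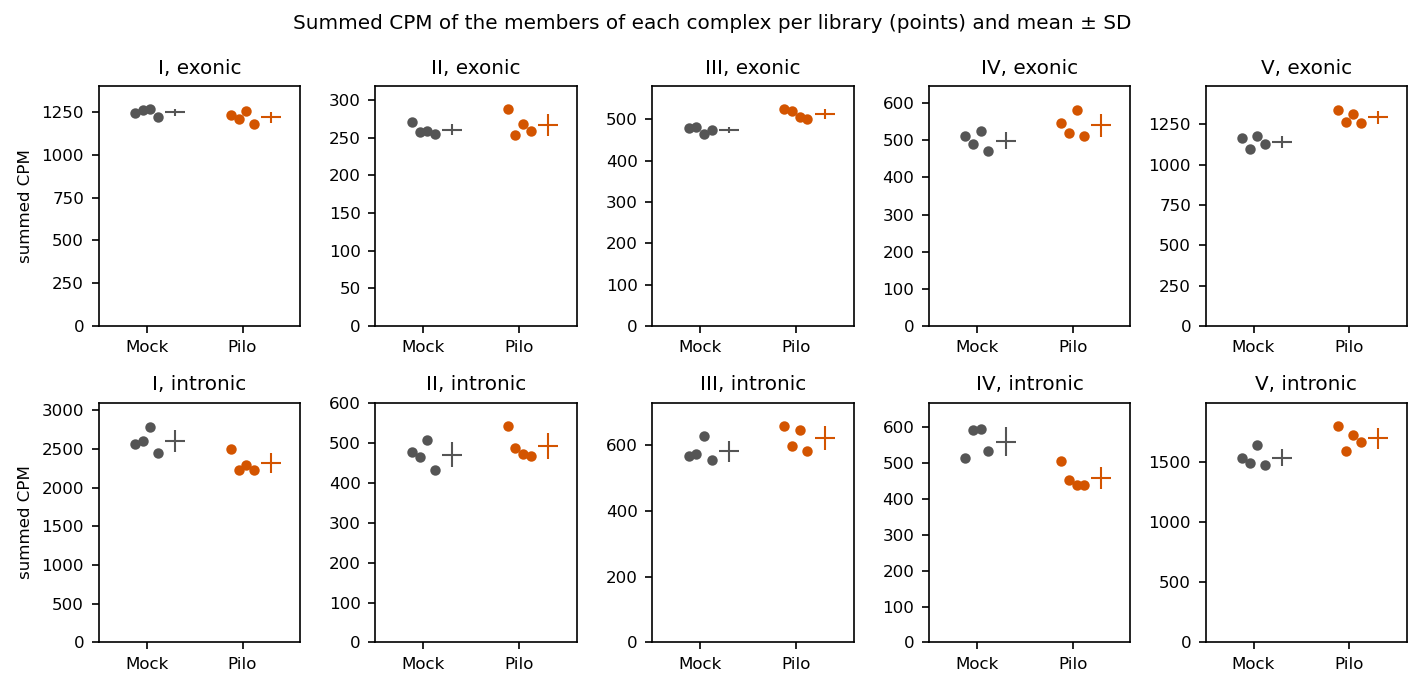
Summed CPM of the members of each complex (vertical axes, from 0) in exonic RNA (top row) and intronic RNA (bottom row), one point per library, with mean ± SD over 4 samples. Complexes III and V in exons lie higher in all Pilo libraries, and complex IV in introns lies lower in all of them.

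Intronic counts of the second table followed unspliced RNA of the same genes. All 83 members had a row there and 76 passed the filter on low counts. At an adjusted p under 0.05 (edgeR, over 13318 genes), 14 of these 76 rose and 25 fell. That is 51.3% called, against 41.4% of all genes tested (19.6% higher and 21.9% lower). The median log2 fold change was -0.12. With the replicate block 19 rose and 31 fell (65.8%, against 56.9% of all genes). Complex I had 2 rises and 11 falls among 34, complex II 1 and 2 among 4, and complex III 4 and 4 among 9. Complex IV had no rise and 4 falls among 12, and complex V 7 rises and 4 falls among 17. With the block, complex I had 7 rises and 14 falls, and complex IV no rise and 6 falls. Ndufa13, Ndufb11, Ndufb8, Cox4i1 and Usmg5 are listed at 0 intronic counts in every library, and each overlaps exons of another gene.

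Intronic calls were also counted by role, and differences between roles were not tested. Of all genes tested, 41.4% were called in introns. Of 27 accessory subunits of complex I tested, 1 rose and 9 fell (37.0%), and of 7 core subunits 1 rose and 2 fell (42.9%). Among the 9 general subunits of complex IV tested, none rose and 4 fell (44.4%). Of the 2 catalytic subunits of complex III, 1 rose. Both large core proteins of complex III rose, Uqcrc1 by 0.56 ± 0.09 (edgeR adjusted p = 0.000175) and Uqcrc2 by 0.43 ± 0.09 (0.00175). Of the 5 small subunits, 4 fell and 1, Uqcrq, rose. Uqcr10 had 70.4, 79.3, 90.3 and 75.4 intronic CPM in Mock and 50.3, 36.5, 40.9 and 43.2 in Pilo, without overlap, at -0.88 ± 0.12 (adjusted p = 4.51e-05). In complex V, 3 of the 5 head subunits rose (Atp5a1, Atp5b and Atp5d) and none fell. The peripheral stalk and the membrane accessory subunits each had 1 rise and 1 fall among 4 tested, and the 1 gene for factor B fell. Of the c subunit genes, Atp5g3 rose by 1.01 ± 0.11 (adjusted p = 7.95e-06) and Atp5g1 by 0.56 ± 0.12 (0.00133), while Atp5g2 fell by 0.36 on the log2 scale (SE 0.13, adjusted p = 0.0400). The Atp5g2 call was lost without any 1 of Mock 1, 2 and 3 and Pilo 2, 3 and 4 (adjusted p 0.0613 to 0.120). Uqcrc2, Uqcrq and Atp5b were named after their values were seen.

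Atp5g3 had 29.7, 28.9, 35.2 and 27.3 intronic CPM in Mock and 56.7, 60.6, 63.7 and 62.5 in Pilo, all above Mock. Ndufa2 rose in introns by 1.02 ± 0.16 (edgeR adjusted p = 0.000183), from 4.50, 6.77, 6.54 and 5.91 CPM to 12.8, 12.1, 11.5 and 11.8 CPM. Ndufa6 had the largest intronic fall, by 1.08 on the log2 scale (SE 0.11, adjusted p = 4.77e-06). It went from 89.3, 101, 117 and 95.7 CPM in Mock to 51.6, 50.2, 42.6 and 46.1 CPM in Pilo. Ndufs5, an accessory subunit of complex I, held 37.1, 40.3, 52.4 and 41.4 intronic CPM in Mock and 26.4, 22.7, 21.4 and 22.8 in Pilo. The groups were apart, at -0.88 ± 0.13 (adjusted p = 0.000102). In exons Ndufs5 was at -0.22 ± 0.10 (adjusted p = 0.102), and it passed there with the replicate block (-0.23 ± 0.09, adjusted p = 0.0388).

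Whether exonic and intronic RNA of a gene changed by the same amount was tested as an interaction in one model, with the sample as a covariate (edgeR, 13047 genes). The changes differed for 34 of the 76 members, with 21 more positive in exons and 13 more negative. That is 44.7%, against 26.2% of all genes tested (13.5% more positive in exons and 12.8% more negative). Complex I had 9 and 3 of these, complex II 1 and 1, complex III 2 and 4, complex IV 6 and 1 and complex V 3 and 4. Cox5a was among the first kind. Its exonic change in the second table was 0.63 ± 0.08, while its intronic level was 43.7, 48.3, 51.3 and 50.9 CPM in Mock and 49.5, 47.1, 44.4 and 46.0 CPM in Pilo, with overlap. The difference was 0.68 ± 0.09 (adjusted p = 0.000259). Atp5f1 rose in exons (0.35 ± 0.07 in the second table) and fell in introns by 0.28 on the log2 scale (SE 0.10, adjusted p = 0.0444), a difference of 0.63 ± 0.09 (0.000365). The intronic call of Atp5f1 was lost without any 1 of Mock 1, 2 and 3 and Pilo 2, 3 and 4 (adjusted p 0.0739 to 0.120).

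Ndufb2 was among the second kind, with a difference of -1.06 ± 0.11 (edgeR adjusted p = 3.02e-05). Its intronic level was 26.5, 25.2, 32.2 and 25.9 CPM in Mock and 38.0, 27.2, 31.6 and 30.6 CPM in Pilo, with overlap, and its intronic change was 0.22 ± 0.13 (adjusted p = 0.206). Uqcrc1 and Uqcr10 moved less in exons than in introns, with differences of -0.37 ± 0.06 (0.000453) and 0.54 ± 0.09 (0.00111). For Cox6a1, introns fell by 0.79 on the log2 scale (SE 0.13, adjusted p = 0.000262), from 45.1, 53.7, 63.0 and 50.0 CPM to 35.6, 25.5, 30.6 and 31.0 CPM, while exons stood at 0.13 ± 0.11. Cox6c, named after its values were seen, had intronic levels of 47.1, 71.4, 51.4 and 54.3 CPM in Mock and 39.5, 31.3, 23.8 and 29.8 CPM in Pilo, without overlap. Its difference was 1.02 ± 0.18 (adjusted p = 0.00251). Exons of Cox6c overlap those of Vps13b on the opposite strand, whose part in these values was not tested. Overlaps were sought between exons only, so other genes within the introns of members were not examined.

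Set side by side, 6 members rose in both regions (Atp5a1, Atp5d, Atp5g3, Ndufa2, Ndufs7 and Uqcrc1) and 8 fell in both (Atp5mpl, Ndufa6, Ndufa7, Ndufb4, Ndufs3, Ndufv3, Sdhb and Uqcr10). Another 24 passed in introns and not in exons, 8 upward and 16 downward. Exonic calls here are those of the exonic table. These regions come from the same libraries and are not independent, and joint calls were not counted over all genes. Of all genes tested, 31.8% were called in exons and 41.4% in introns. The intronic share of a member's exonic and intronic counts had a median of 48.8% in Mock and 40.8% in Pilo over the 76 members, and its mean was lower in Pilo for 63 of them. In whole libraries that share was 31.9% to 33.7% in Mock and 29.2% to 30.6% in Pilo, lower in every Pilo library. The library share pools all counts and is a different measure from a median over genes. No count over all genes stands beside the 63, so whether the lower share is particular to members was not tested.

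**Figure D5:**
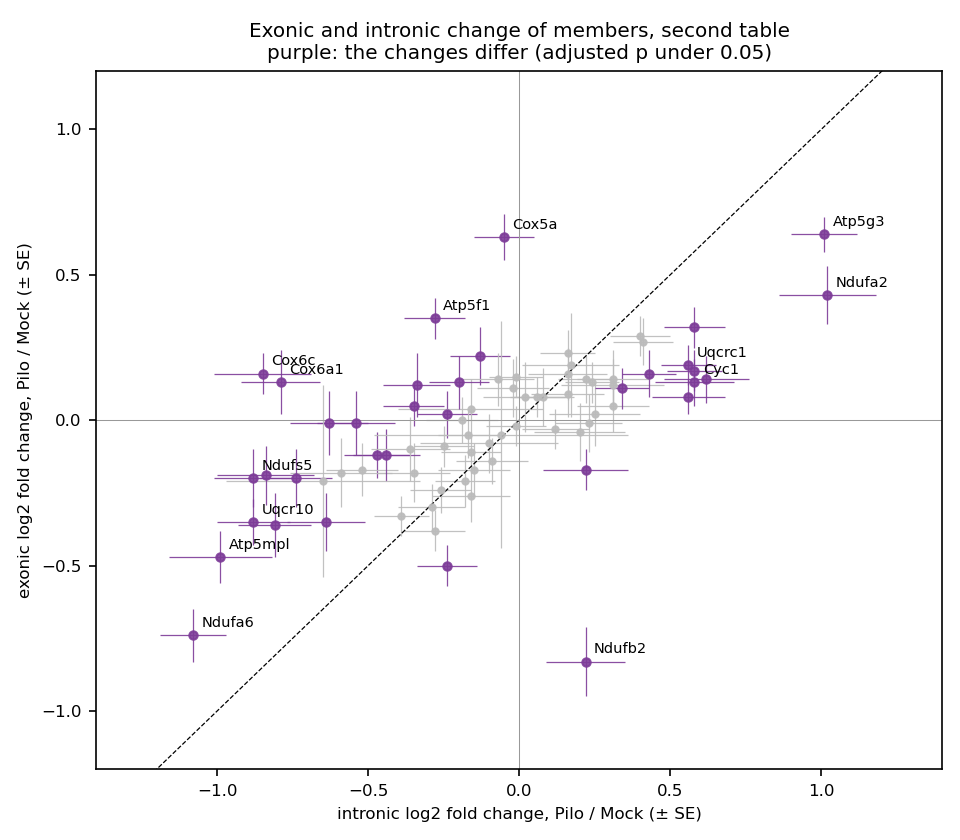
Intronic (horizontal) and exonic (vertical) log2 fold change of Pilo against Mock for the 76 members tested, both from the second table, with ± SE; the dashed line marks equal change. The 34 members whose changes differed are purple, with Cox5a, Atp5f1, Cox6c and Cox6a1 above the line and Ndufb2, Ndufa2 and Atp5g3 below it.

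Promoters were examined for motifs because NRF1 and GABP are known regulators of these genes. RefSeq promoters (GRCm38.p6, 250 bases before to 50 after the first listed start) were matched for 69 of the 83 members. An NRF1 motif (GCGCA and GCGC with any 1 base between them, both strands) was in 16 of them (23.2%), against 6.60% of 17491 protein-coding genes. The ETS motif that GABP binds (CCGGAAG) was in 16 (23.2%, against 11.9%). The CRE motif (TGACGTCA) was in 4 (5.80%, against 2.34%), and the AP-1 motif (TGANTCA) in 7 (10.1%, against 7.08%). Among members that rose in exons, 2 of 8 with a promoter held the NRF1 motif, and among those that fell 2 of 9. For the ETS motif these were 0 of 8 and 2 of 9, for CRE 0 of 8 and 1 of 9. For AP-1 they were 1 of 8 and 0 of 9. Differences between these small groups were not tested. A match is a description and not a binding site. The following 60-base stretches, on the minus strand, show the NRF1 match in capitals. They are from the members with a match before the start whose whole stretch lay outside annotated exons. Members whose stretch touched an annotated exon are not shown. The stretches lie at chr16:37654525-37654584 (Ndufb4), chr4:123718250-123718309 (Ndufs5) and chr11:115420026-115420085 (Atp5h, a stalk subunit).
Ndufb4: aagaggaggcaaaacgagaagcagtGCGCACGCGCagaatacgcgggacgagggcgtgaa
Ndufs5: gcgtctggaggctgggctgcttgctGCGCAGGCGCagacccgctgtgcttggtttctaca
Atp5h: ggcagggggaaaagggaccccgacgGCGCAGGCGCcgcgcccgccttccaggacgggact
Ndufb4 fell in exons and introns and Ndufs5 in introns, whereas Atp5h passed in neither region.

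Assembly factors, the proteins that build the complexes, were counted against all genes tested, of which 31.8% were called and 16.2% fell. With the replicate block 47.0% of all genes were called. Of 16 complex I assembly factors tested in exons, none rose and 7 fell (43.8%, median -0.20), and with the replicate block none rose and 9 fell. They included Dmac1 (-0.69 ± 0.10, edgeR adjusted p = 0.000191), Tmem186 (-0.47 ± 0.07, 0.000296), Ndufaf4 (-0.42 ± 0.09, 0.00373) and Ndufaf7 (-0.28 ± 0.07, 0.00842). Of 22 complex IV assembly factors, 2 rose and 7 fell (40.9%, median -0.22), and with the block 2 rose and 10 fell. Cox17, the chaperone that delivers copper to cytochrome c oxidase, went from 31.6 ± 2.04 (SD, n = 4) to 8.90 ± 2.65 CPM, a log2 fold change of -1.82 ± 0.17 (adjusted p = 1.61e-05). Cox20 (-0.74 ± 0.10), Cox14 (-0.42 ± 0.09) and Cox18 (-0.37 ± 0.09) fell as well. Of 14 assembly factors of complexes II, III and V, Uqcc1 rose (0.38 ± 0.08) and 2 fell, Bcs1l (-0.75 ± 0.10), which inserts the Rieske protein into complex III, and Fmc1 (-0.56 ± 0.14). Without the block 21.4% of these 14 were called (median -0.16), and with it they had 3 rises and 4 falls (50.0%).

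Of 14 genes for cytochrome c and coenzyme Q synthesis, 2 rose and 4 fell (42.9%, against 31.8% of all genes, median -0.06). Coq2, Coq4 and Coq9 fell by 0.36, 0.42 and 0.34 on the log2 scale and Coq10b rose by 0.40. With the block 4 rose and 6 fell (71.4%, against 47.0% of all genes). Of 16 tricarboxylic acid cycle genes, 3 rose, among them Idh3a (0.25 ± 0.07) and Mdh2 (0.23 ± 0.07), and Idh3g fell by 0.33 (SE 0.08). That is 25.0% called (median 0.11). With the block 6 rose and 2 fell (50.0%). Idh3a lost its call without Mock replicate 2 or Mock replicate 4 (edgeR adjusted p 0.0533 to 0.0684).

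Of 9 mitochondrial carriers and porins, 4 rose and 1 fell (55.6%, against 31.8% of all genes). Their log2 fold changes lay above 0 for 4 genes and below 0 for 5. With the block 55.6% were called, against 47.0% of all genes. Slc25a3, the phosphate carrier that supplies ATP synthase, went from 426 ± 8.47 to 651 ± 50.5 CPM (0.61 ± 0.08, edgeR adjusted p = 8.72e-05). Slc25a4, which exchanges ADP for ATP, rose by 0.29 ± 0.08, the glutamate carrier Slc25a22 by 0.33 ± 0.10 and the porin Vdac1 by 0.24 ± 0.07. The Slc25a22 call was lost without Pilo replicate 2 or Pilo replicate 4 (adjusted p 0.0559 and 0.0573). Of 13 regulators, 4 rose and 2 fell (46.2%, median 0.05), and with the block 5 rose and 2 fell (53.8%). Ppargc1a, the coactivator that drives mitochondrial biogenesis, rose by 0.54 ± 0.11 (adjusted p = 0.00183), Tfam, which packages and transcribes mitochondrial DNA, by 0.28 ± 0.08 (0.0171) and Yy1 by 0.23 ± 0.08 (0.0382). Gabpa, the DNA-binding subunit of GABP, fell by 0.59 (SE 0.12, adjusted p = 0.00234). Exons of Gabpa overlap those of the member Atp5j on the opposite strand, and the part of Atp5j in this value was not tested. Yy1 lost its call without any 1 of Mock 2, 3 and 4 and Pilo 1, 2 and 4 (0.0511 to 0.104), and Tfam without Pilo 2 (0.0546).

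Of the 13 mitochondrially encoded subunits, 7 passed the filter and none was called by edgeR without the replicate block. Their log2 fold changes ran from 0.11 to 0.34 (median 0.25), with 5 rising under the block (71.4%). Of all genes tested, 31.8% were called without the block and 47.0% with it. The other 6, among them mt-Co2 and mt-Atp6, had at most 12 counts in any library.

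Markers of other cells were counted beside the members, and the summed CPM of every list overlapped between the groups. Of all genes tested, 31.8% were called, and 47.0% with the replicate block. The 8 inhibitory neuron markers summed to 126 to 163 CPM in Mock and 161 to 257 CPM in Pilo, with 3 rising (Gad1, Gad2 and Dlx2) and 8 rising with the replicate block. The 6 oligodendrocyte markers summed to 284 to 386 and 364 to 642 CPM, with 1 rising (Mbp) and 5 with the block. The 6 astrocyte markers summed to 118 to 243 and 122 to 315 CPM, with no call and 4 rising with the block. The 4 precursor markers summed to 25.4 to 51.0 and 26.4 to 63.2 CPM, with no call, and 2 rose and 1 fell with the block. The 5 endothelial markers summed to 4.71 to 17.8 and 6.82 to 46.1 CPM, with no call and 3 rising with the block. The 6 microglial markers (12.3 to 18.8 and 14.2 to 22.5 CPM) had no call in either fit. Of the 6 excitatory markers, which summed to 2270 to 2910 and 2540 to 3100 CPM, Neurod2, Neurod6 and Tbr1 rose, and 4 rose and 1 fell with the block. No marker was at 0 in all libraries, and the part of other nuclei in the subunits' changes was not tested.

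Libraries with low and with high mitochondrial RNA were also analysed apart, 2 samples per group each time. The high libraries also held more RNA of glial markers, and this split cannot tell the RNA sources apart. Astrocyte markers summed to 131, 118, 218 and 243 CPM in Mock replicates 1 to 4, and to 152, 122, 315 and 298 CPM in Pilo. Oligodendrocyte precursor markers summed to 28.0, 25.4, 48.3 and 51.0 CPM in Mock and to 30.0, 26.4, 63.2 and 62.3 CPM in Pilo. Among replicates 1 and 2 of the exonic table, 2 members rose and 3 fell. Among replicates 3 and 4, 3 rose and 4 fell. Of the 21 calls made on all libraries, 5 were made in the first pair and 7 in the second, and no call changed direction. In introns, the low pair gave 5 rises and 6 falls, and the high pair 27 of the 39 calls, of which 8 were rises. The difference between regions passed for 2 of its 34 members in the low pair and for 20 in the high pair. Calls over all genes in these fits are not given here. The counts therefore do not show whether the contrast between the pairs is particular to members.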

How the data were processed

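Raw counts per gene were deposited by the authors as an exonic table and a second table with exonic and intronic columns. The submitters' processing notes name edgeR, R 4.1.1, HTSeq 0.11.2, STAR 2.7.1a and Trimmomatic 0.39, and the build mm10, without roles. For the annotation, strand setting and separation of introns, the method is not given in the sources used here.

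Genes were tested with edgeR 4.0.16 (R 4.3.3), using the robust quasi-likelihood test, TMM and filterByExpr with a minimum count of 10. Benjamini-Hochberg adjustment ran over all genes tested, with a threshold of 0.05. SE is the coefficient divided by the square root of F. Alternatives were RLE size factors, DESeq2 1.42.0, limma-voom (limma 3.58.1), other filters, the second table, the replicate block and leaving out each library, and the scripts were tested on simulated data. Gene positions and transcript lengths are from GENCODE vM21.

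The members and lists were chosen with earlier results of these data known. Named with values are members past the exonic test, the extremes of each complex, up to 6 members of smallest p in introns and in the difference, the isoform families and up to 4 genes of smallest p per list. A single gene that this rule takes is left out of the text. After subtracting group means, Mock and Pilo libraries of equal number correlated in all 4 pairs (Pearson r 0.372 to 0.401 in exons and 0.318 to 0.470 in introns), which takes the numbers as pairs. The number's origin is not given in the labels. Libraries of a group differed beyond counting noise.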

Additional observations from a re-analysis of the deposited data

Results flagged for a closer look

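In 6 of 80 groups of 4 libraries (35 named members and 5 summed complexes, exonic CPM), the highest or lowest library stood apart from the other 3 by Dixon's criterion at 95%. Chance flags about 1 in 20 groups. Ndufab1 was at 59.2 CPM in Pilo replicate 3, with the others at 52.6 to 53.5 CPM. Sdhb was at 51.6 CPM in Mock replicate 4, with the others at 57.6 to 57.9, and at 48.5 CPM in Pilo replicate 1, with the others at 42.3 to 42.8. Atp5mpl was at 22.9 CPM in Pilo replicate 1, with the others at 18.0 to 18.7. Mock replicate 3 was the highest for Cox7a2 (25.2 CPM, others 20.8 to 21.4) and for Cox8a (51.2 CPM, others 44.3 to 45.4). The exonic calls of Ndufab1, Sdhb and Atp5mpl were kept without each of these libraries in turn.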

How the results depend on the processing

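Calls of members kept their direction in every fit run. The 21 exonic calls were all kept with DESeq2, limma-voom, RLE size factors and the stricter filter. Ndufs4, Ndufv3, Uqcrc1 and Cox4i1 were lost with no filter on low counts, and Ndufs4 and Uqcrc1 in the second table. With the replicate block, which changed the calls given above, members rising in exons went from 11 to 23 and members falling from 10 to 16, no member called before was lost, and no other count over all members moved with it by more than 1.5 times. In the libraries with low mitochondrial RNA, a split chosen after seeing the data, exons had 2 rises and 3 falls, introns 5 and 6, and the difference 1 and 1. In those with high mitochondrial RNA, exons had 3 rises and 4 falls, introns 8 rises, and the difference 13 and 7. Each split has 2 samples per group, which limits the calls it can make, and calls over all genes are not given beside these counts. The log2 ratio of summed CPM moved to -0.12 for complex II and 0.05 for complex III without the most abundant member. The intronic call of Ndufv3 was lost without any 1 of Mock 1, 2 and 3 and Pilo 1, 2 and 4 (adjusted p 0.0588 to 0.0987), and that of Sdhb without any 1 of Mock 2 and 3 and Pilo 2, 3 and 4 (0.0643 to 0.0991). Cox6a2, Cox6b2, Cox7a1 and Cox8b, at about 1 CPM or less, have standard errors of 0.29 to 1.02 and limit what can be seen of them.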
